A study of Mus musculus with 4 samples.

Results

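Divergent opposite-strand pairs are places where the CLIP-seq library of the transcription factor YY1 gave a peak on each strand of the genome. The minus-strand peak lies at the lower coordinates or, where the 2 peaks overlap, has the lower midpoint. In separate pairs, read along the strands, the 2 RNAs point away from each other. Overlapping pairs are called divergent by their midpoints only. The members were chosen by position. On chromosomes 1 to 19, a member lay either in a reciprocal nearest pair of opposite-strand peaks that did not overlap, with a gap of at most 2000 bases and the minus-strand peak at the lower coordinate, or in an overlapping opposite-strand pair in which the midpoint of the minus-strand peak was the lower. The 26 peaks of a dense stretch of chromosome 1, from 172958099 to 173041711, were left out. The rule found 282 member peaks in 141 pairs, 97 separate and 44 overlapping, among 12053 peaks in all. They made up 2.41% of the 11719 autosomal peaks searched (exact Clopper-Pearson 95% interval 2.14 to 2.70).

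The peaks came from 1 CLIP-seq library of mouse embryonic stem cells, the only one of the series' 4 libraries used. Those cells carried the bacterial biotin ligase BirA and YY1 with a tag that BirA biotinylates, labelled BirA BioYY1, and were grown on irradiated embryonic fibroblasts. RNA was joined to protein with 254 nm light, and YY1 was captured from lysed nuclei on streptavidin beads. The libraries of cells with BirA only and of tagged OCT4 were not analysed here, so no peak was set against a control, and markers of stem cells or feeder cells were not examined. With 1 library there is no spread between replicates and no p-value. All intervals are 95% intervals that cover counting error over peaks, treat peaks as independent, and say nothing of the error between cultures.

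YY1 is a zinc finger protein that binds DNA at active promoters and enhancers and also binds RNA. RNA polymerase II starts in both directions at many mammalian promoters: the sense RNA is elongated into the gene, while the upstream antisense RNA is usually short and quickly degraded. Enhancers are transcribed in both directions as well, and some neighbouring genes share a promoter region from which they are read head to head. A minus-strand peak followed by a plus-strand peak is the order that any of these gives. The names of the 2 lists are taken here to give the strand of the RNA. If they named the opposite strand, divergent would read convergent and downstream would read upstream throughout.

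The peaks of the 97 separate pairs faced each other across a short gap. The median gap was 487 bases (378 to 622), with the middle range from 269 to 802 bases and extremes of 14 and 1971 bases. By gap, 14 pairs lay under 200 bases apart, 36 from 200 to 500, 29 from 500 to 1000 and 18 from 1000 to 2000. The pair with the smallest gap was on chromosome 15, where a minus-strand peak of 675 bases ended 14 bases before a plus-strand peak of 143 bases (88665040 to 88665714 and 88665729 to 88665871, mm9). Gaps of 18 bases on chromosome 11 (93746222 to 93746740 and 93746759 to 93748713) and 35 bases on chromosome 6 (87930591 to 87930754 and 87930790 to 87931128) came next. From its lower to its upper outer edge a divergent pair, separate or overlapping, covered a median of 1140 bases (1023 to 1302).

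**Figure D1:**
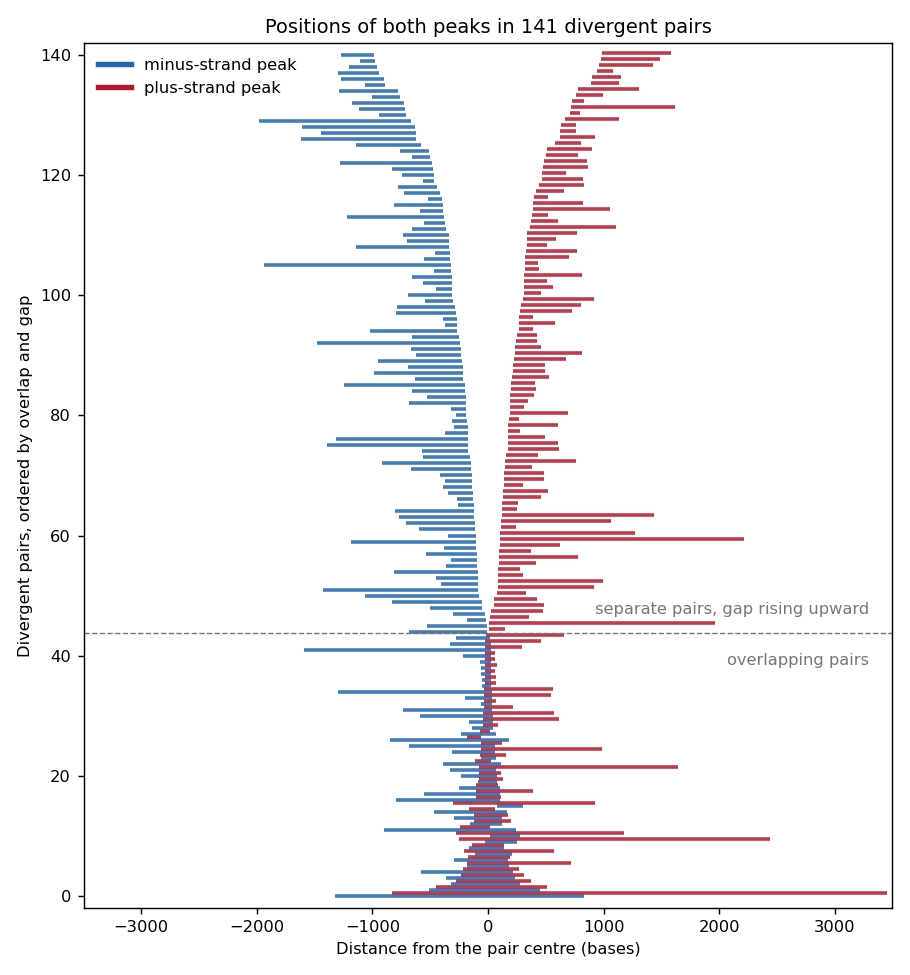
Each row is 1 of the 141 divergent pairs, with the minus-strand peak in blue and the plus-strand peak in red, drawn by distance in bases from the pair centre, which is the midpoint between the facing peak edges. The 44 overlapping pairs are at the bottom and the 97 separate pairs above them by rising gap; in most rows 1 of the 2 peaks is visibly the longer, on either side.

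The gap limit was part of the rule, so the pairs at its edge are given as a description only. Just inside lay pairs with gaps of 1971 bases on chromosome 11 (70513200 to 70513485 and 70515457 to 70516054), 1958 bases on chromosome 9 and 1927 bases on chromosome 19 (5424720 to 5424962 and 5426890 to 5427351). Just outside lay gaps of 2006 bases on chromosome 3, 2009 bases on chromosome 13 and 2171 bases on chromosome 11. The first of these outer pairs had nearly equal peaks of 215 and 214 bases, and the second had narrow peaks of 136 and 99 bases. The third had a minus-strand peak of 551 bases and a plus-strand peak of 121 bases. The inner pairs had plus-strand peaks of 462 to 598 bases and minus-strand peaks of 127 to 286 bases.

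In the 44 overlapping pairs the peaks shared between 41 and 1664 bases, with a median of 143 (90 to 220). In 13 of them, 29.5% (16.8 to 45.2), the shorter peak lay wholly inside the longer. The longest overlap was on chromosome 11, where a minus-strand peak of 2155 bases (102177629 to 102179783) and a plus-strand peak of 4287 bases (102178120 to 102182406) shared 1664 bases. On chromosome 5, peaks of nearly equal width, 958 bases on the minus strand (18775937 to 18776894) and 962 on the plus strand (18775998 to 18776959), shared 897 bases. On chromosome 7, peaks of 596 and 647 bases (133646486 to 133647081 and 133646535 to 133647181) shared 547 bases. In the chromosome 5 and chromosome 7 pairs the midpoints that set the order were close together, since each peak covered most of the other.

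A small set of the overlapping pairs had almost the same shape. In 6 pairs, on chromosomes 1, 6, 7, 10, 12 and 14, both peaks were under 150 bases wide. Their widths ran from 84 to 107 bases, they shared 56 to 70 bases, and the plus-strand peak began 25 to 39 bases after the minus-strand peak. The chromosome 14 pair, for example, had a minus-strand peak of 84 bases from 46432456 to 46432539 and a plus-strand peak of 98 bases from 46432481 to 46432578. In the chromosome 7 pair, peaks of 85 and 97 bases (97590454 to 97590538 and 97590479 to 97590575) shared 60 bases. Read depth is unknown, and the part of depth or of multiply mapping reads in this shape was not tested.

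The order of the strands was what the rule used, and convergent pairs found by the same steps, with the plus-strand peak first, are the nearest comparison. They numbered 49, of which 39 were separate and 10 overlapping, so that 74.2% of the 190 pairs were divergent (67.4 to 80.3). The median gap of separate convergent pairs was 478 bases (198 to 754), an interval that holds the divergent value. In width the intervals of the 2 kinds did not overlap. Divergent members had a median width of 338.5 bases (300 to 376), next to 339 bases (333 to 346) over all autosomal peaks, whereas convergent peaks had a median of 137.5 bases (129 to 157). Peaks under 150 bases were 15.4% of all autosomal peaks, 18.1% of divergent members (51 of 282; 13.8 to 23.1) and 59.2% of convergent peaks (58 of 98; 48.8 to 69.0). One minus-strand peak, on chromosome 2 at 98507061, belonged to an overlapping pair of each kind.

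Wide peaks were found among the members at about their overall share. Peaks over 1000 bases were 8.38% of all autosomal peaks and 8.16% of divergent members (23 of 282; 5.24 to 12.0), a share near the background. They fell into 21 of the 141 pairs, and in 2 pairs, on chromosome 11 at 102177629 and on chromosome 6 at 113025926, both peaks were over 1000 bases. Of convergent peaks, 2 of 98 were over 1000 bases.

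Within a divergent pair the 2 peaks were usually of unequal width, and neither genome strand was shown to hold the wider peak more often. Width is the only measure of extent in the lists, and the rule did not use it for separate pairs. The wider peak measured a median of 1.93 times the narrower (1.66 to 2.28), with a middle range from 1.32 to 3.18 and a maximum of 13.9. It was at least 2 times as wide in 68 of 141 pairs, 48.2% (39.7 to 56.8), at least 5 times in 14 pairs, and less than 1.5 times in 47 pairs, 33.3% (25.6 to 41.8). Widths over all autosomal peaks also varied, with a middle range from 206 to 576 bases. The ratio between 2 autosomal peaks taken without regard to pairing was not computed. The inequality is therefore not read as particular to pairs. The plus-strand peak was the wider in 64 pairs, 45.4% (37.0 to 54.0), and 1 pair had equal widths. The interval holds 50%. Genes lie on either genome strand and no pair was oriented by a gene. A share by genome strand therefore cannot show whether sense and antisense peaks differ in width. Among the 68 most unequal pairs, the plus-strand peak was the wider in 28, 41.2% (29.4 to 53.8). The median width was 364 bases on the minus strand (310 to 414) and 309 on the plus strand (252 to 375). These intervals overlap, but they leave out the pairing of the widths and so do not judge a difference.

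The inequality was much alike over the kinds of pair. The median ratio was 1.93 in separate pairs (1.65 to 2.28) and 1.92 in overlapping ones (1.35 to 2.80). By gap it was 2.07 under 200 bases, 1.92 from 200 to 500, 1.44 from 500 to 1000 and 2.37 from 1000 to 2000, with overlapping intervals throughout (the lowest, from 500 to 1000 bases, ran from 1.20 to 2.62). Summed width had a median of 896.5 bases in the closest class (598 to 1245) and 675 in the widest-spaced (507 to 1037). Over the 141 pairs, the log2 widths of both peaks had a Pearson r of 0.22 and a Spearman rho of 0.15, a weak relation between values that share a library and a caller.

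Convergent pairs were more equal, and this went with their narrow peaks. Their median ratio was 1.27 (1.18 to 1.45), below the divergent interval. Both peaks were under 150 bases in 23 of the 49 convergent pairs, 46.9% (32.5 to 61.7), and in 12 of the 141 divergent pairs, 8.51% (4.48 to 14.4). Without such pairs, a setting chosen after seeing the data, the median ratio was 2.09 in 129 divergent pairs (1.80 to 2.48) and 1.87 in 26 convergent pairs (1.33 to 2.98), intervals that overlap widely.

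**Figure D2:**
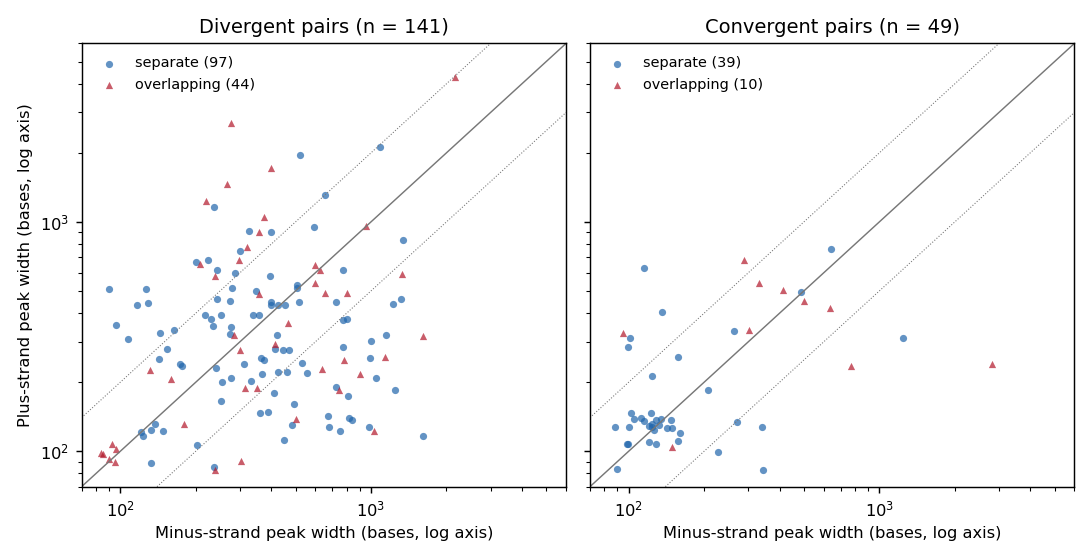
Width of the plus-strand peak against that of the minus-strand peak, in bases on log axes, for 141 divergent and 49 convergent pairs; circles are separate and triangles overlapping pairs, the solid line marks equal widths and the dotted lines a ratio of 2. Divergent pairs spread on both sides of the equal line with 68 at or beyond a ratio of 2, while 23 convergent pairs sit together where both peaks are under 150 bases.

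The most unequal pair was on chromosome 8, with a minus-strand peak of 1618 bases (125564535 to 125566152) and a plus-strand peak of 116 bases (125566793 to 125566908) across a gap of 640 bases. The next was on chromosome 1, where a plus-strand peak of 2694 bases (88423368 to 88426061) held the whole of a minus-strand peak of 275 bases (88423598 to 88423872), a ratio of 9.80. On chromosome 11, a plus-strand peak of 122 bases (106993100 to 106993221) lay inside a minus-strand peak of 1027 bases (106992429 to 106993455), a ratio of 8.42. In the chromosome 11 pair at 48629793 to 48630769 and 48632034 to 48632161, the minus-strand peak measured 977 bases and the plus-strand peak 128. The fifth, on chromosome 6, had a minus-strand peak of 1241 bases (72848713 to 72849953) and a plus-strand peak of 184 bases (72850441 to 72850624). In 4 of these 5 the minus-strand peak was the wider, as it was in 10 of the 14 pairs with a ratio of at least 5, where the plus-strand share was 28.6% (8.39 to 58.1).

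Large pairs were found with either strand in the lead. After the 6442 bases of the overlapping chromosome 11 pair, the largest summed width was the 3198 bases of the chromosome 6 pair, with 1085 bases on the minus strand (113025926 to 113027010) and 2113 on the plus strand (113027219 to 113029331). The unequal chromosome 1 pair described above came next with 2969 bases. The chromosome 11 pair with the gap of 18 bases summed to 2474 bases, 519 on the minus strand and 1955 on the plus strand. On chromosome 13 (58502475 to 58503817 and 58503988 to 58504820) the minus-strand peak was the wider, 1343 against 833 bases. An overlapping pair on chromosome 12 had 399 bases on the minus strand (110030987 to 110031385) and 1716 on the plus strand (110031238 to 110032953). Among the 10 largest, the plus-strand peak was wider in 7.

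Chromosome 17 had 2 of the 10 largest pairs close to each other. In the first (34167924 to 34168576 and 34168817 to 34170130) the plus-strand peak was the wider, 1314 against 653 bases. In the second (34255002 to 34256619 and 34256569 to 34256887) the minus-strand peak was, with 1618 against 319 bases. The next minus-strand peak below the second pair was the minus-strand member of the first, 86425 bases away. On chromosome 2, a minus-strand peak of 1328 bases (72816607 to 72817934) overlapped a plus-strand peak of 595 bases (72817873 to 72818467) by 62 bases.

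The next peak on the same strand was then sought on either side of each member. Downstream means to lower coordinates on the minus strand and to higher ones on the plus strand, and upstream means the other way. In separate divergent pairs downstream is away from the partner, and upstream is back across it. Over all autosomal peaks, 20.8% had a same-strand peak within 10 kb downstream. Of divergent members 22.7% did (64 of 282; 17.9 to 28.0), a share near that background. Upstream, 20.8% of all autosomal peaks and 8.51% of members had one (24 of 282; 5.53 to 12.4). The members of both strands gave like values. Downstream it was 24.8% on the minus strand (17.9 to 32.8) and 20.6% on the plus strand (14.2 to 28.2), and upstream 6.38% and 10.6%.

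The rule itself keeps some same-strand peaks away upstream, because a peak closer to the partner than the member would have taken its place. It places no such limit downstream, and its reach upstream is set by the gap and the partner's width. Distances between 5 and 50 kb, a range chosen after seeing the data, lie beyond that reach for each of the 194 members of separate pairs. There, 31.9% of members had a same-strand peak downstream (90 of 282; 26.5 to 37.7) and 22.7% upstream (64 of 282; 17.9 to 28.0), against 40.8% and 40.6% of all autosomal peaks. Both member shares lay below those of all autosomal peaks. Convergent peaks had 45.9% on each side (45 of 98; 35.8 to 56.3), an interval that holds the values of all autosomal peaks. The members' downstream and upstream shares are of the same 282 peaks, so their separate intervals, which overlap, do not judge the difference. The median distance to the next same-strand peak was 79234 bases downstream (59592 to 100317) and 168335 bases upstream (138565 to 230161), against 58468 bases on either side over all autosomal peaks (55369 to 62117).

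Within 1000 bases, by contrast, downstream peaks were more frequent beside members than beside autosomal peaks at large. A further same-strand peak began within 1000 bases downstream of 12.1% of members (34 of 282; 8.50 to 16.4), where all autosomal peaks had 6.25%. A peak caller can split a long stretch into several peaks. With same-strand peaks within 100 bases joined first, the shares were 8.66% of 277 members (5.63 to 12.6) and 4.02% of all autosomal peaks (3.67 to 4.39). In convergent pairs the outward side, which the rule leaves free, is upstream. There 9.18% of peaks had a same-strand peak within 1000 bases (9 of 98; 4.29 to 16.7), or 9 of 100 with peaks joined, and both divergent values lie inside that first interval. A frequent close peak on the outward side was thus not shown to be particular to divergent pairs. On their downstream side, which the rule limits, the share was 3.06% (3 of 98; 0.636 to 8.69).

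**Figure D3:**
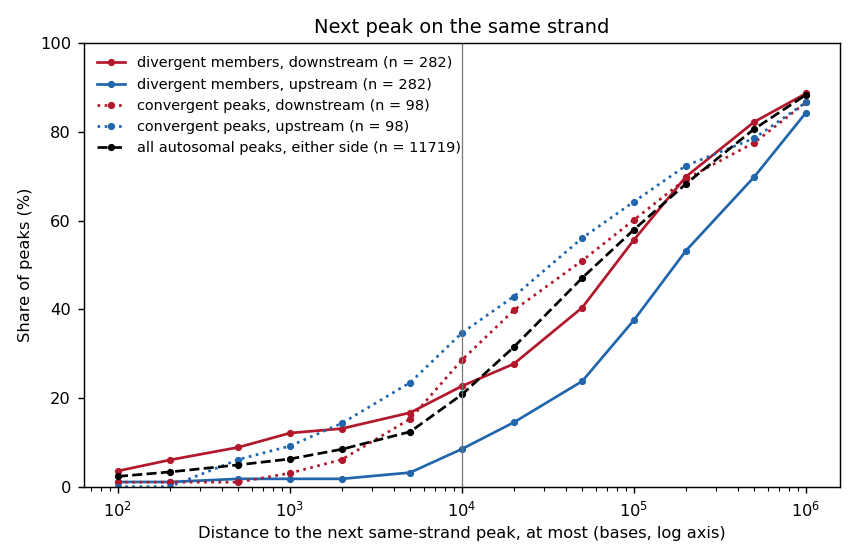
Cumulative share of peaks, in percent, whose next same-strand peak lies within the distance on the log axis in bases, downstream in red and upstream in blue, for divergent members (solid), convergent peaks (dotted) and all autosomal peaks (dashed); the vertical line marks 10 kb. The divergent downstream line starts above the dashed line, at 12.1% against 6.25% by 1000 bases, and meets it near 10 kb, while the divergent upstream line stays below it, at 8.51% against 20.8% by 10 kb. The rule itself limits near peaks upstream of divergent members and downstream of convergent peaks.

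The pairs were then divided by whether a same-strand peak followed on neither, 1 or both strands. Within 10 kb, 85 of 141 pairs (60.3%; 51.7 to 68.4) had a downstream peak on neither strand, 48 (34.0%; 26.3 to 42.5) on 1 strand and 8 (5.67%; 2.48 to 10.9) on both. The 48 divided into 27 with the peak on the minus strand and 21 on the plus strand. Within 50 kb, 50 pairs had none, 68 had them on 1 strand and 23 on both (16.3%; 10.6 to 23.5). Both splits lay close to the products of the 2 strands' own shares, which are 84.2, 49.6 and 7.20 pairs at 10 kb and 50.0, 68.0 and 23.0 at 50 kb. Nothing about the coupling of the strands is therefore read from them. In convergent pairs, whose downstream side crosses the partner, the shares within 10 kb were 57.1% on neither strand, 28.6% on 1 and 14.3% on both. The products of their 2 strands' shares were 51.0%, 40.9% and 8.12%, and the difference was not tested. Where 1 strand alone continued within 10 kb, that strand's member was the wider in 26 of 48 pairs, 54.2% (39.2 to 68.6). Within 50 kb it was the wider in 41 of 68, 60.3% (47.7 to 72.0). Both intervals hold 50%. In convergent pairs it was the wider in 8 of 14 within 10 kb, 57.1% (28.9 to 82.3), and in 15 of 22 within 50 kb, 68.2% (45.1 to 86.1). Of the wider members 24.3% had a downstream peak within 10 kb (17.4 to 32.2), and of the narrower members 20.7% (14.3 to 28.4).

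Counted over whole neighbourhoods, peaks on the member's own strand were more frequent downstream than upstream of divergent pairs. In all, 214 same-strand peaks lay within 50 kb downstream of the 141 pairs and 112 within 50 kb upstream. The rule itself limits peaks in the near upstream zone, and its part in that difference was not tested. From 2 to 10 kb of the pair centre, a class that zone can reach, there were 42 downstream and 26 upstream. From 10 to 25 kb there were 60 and 39, from 25 to 50 kb 77 and 40, and from 50 to 100 kb 138 and 97. No such count is given for all autosomal peaks. Several of these peaks can come from 1 transcript, so no interval is given. Around the 49 convergent pairs 138 lay downstream and 132 upstream within 50 kb of the members. By distance from the centre there were 31 downstream and 40 upstream from 2 to 10 kb, 44 and 43 from 10 to 25 kb, 59 and 37 from 25 to 50 kb, and 105 and 80 from 50 to 100 kb. Beyond 25 kb more peaks thus lay downstream around both kinds of pair, and a difference between the kinds was not tested. Per pair, from 10 to 25 kb convergent pairs had 59.9 downstream peaks per 100 pairs and 10 kb, and divergent pairs 28.4. Some convergent pairs lay close together, as on chromosome 13 at 23518920, 23524805 and 23528824, so 1 peak can be counted for several pairs. Nearby convergent pairs were not counted once, so these rates are not read as a trait of either kind.

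**Figure D4:**
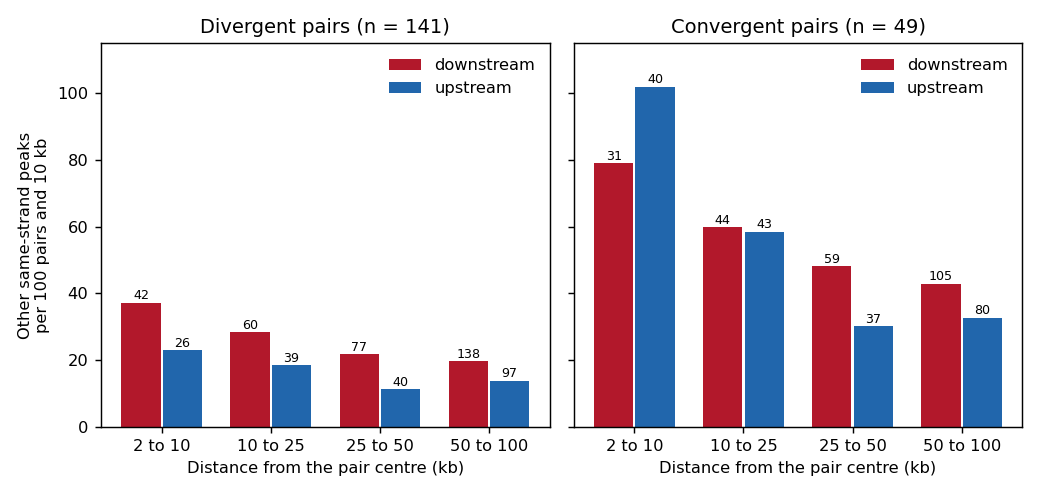
Other same-strand peaks per 100 pairs and 10 kb by distance in kb from the pair centre, downstream in red and upstream in blue, around 141 divergent and 49 convergent pairs; the number above each bar is the count of peaks. Around divergent pairs the downstream bar is the taller in every class, for example 77 against 40 peaks from 25 to 50 kb. Around convergent pairs it is the taller in 3 of the 4 classes, 44 against 43, 59 against 37 and 105 against 80, and the lower from 2 to 10 kb, with 31 against 40. The rule can limit peaks in part of the class from 2 to 10 kb, upstream of divergent and downstream of convergent pairs.

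The pair with the most downstream peaks lay on chromosome 13, with a minus-strand peak of 129 bases (23622164 to 23622292) and a plus-strand peak of 442 bases (23622954 to 23623395). It had 4 minus-strand and 5 plus-strand peaks within 50 kb downstream, and also 3 and 7 upstream, so both strands carried peaks on both sides. On chromosome 2 the picture was different. A pair of 325 and 910 bases (153171068 to 153171392 and 153171564 to 153172473) was followed by 6 plus-strand peaks within 50 kb, while no minus-strand peak lay within 50 kb downstream and none of either strand upstream. Its plus-strand peak was the wider, and its nearest minus-strand neighbour downstream was 105425 bases away.

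The chromosome 5 pair continued on both strands. Its peaks of 591 bases (120120155 to 120120745) and 951 bases (120120977 to 120121927) were each followed by 3 same-strand peaks within 50 kb, the nearest 724 bases below on the minus strand and 87 bases above on the plus strand. No same-strand peak lay within 50 kb upstream on either strand. The overlapping chromosome 1 pair, with 501 bases on the minus strand (134912091 to 134912591) and 138 on the plus strand (134912370 to 134912507), was followed by 5 minus-strand peaks and 1 plus-strand peak. The minus-strand run extended across the pair, with 3 more minus-strand peaks within 50 kb upstream. On chromosome 9, the pair of 127 and 509 bases (64020507 to 64020633 and 64022592 to 64023100) had 3 downstream peaks on each strand, and again 3 minus-strand peaks upstream.

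**Figure D5:**
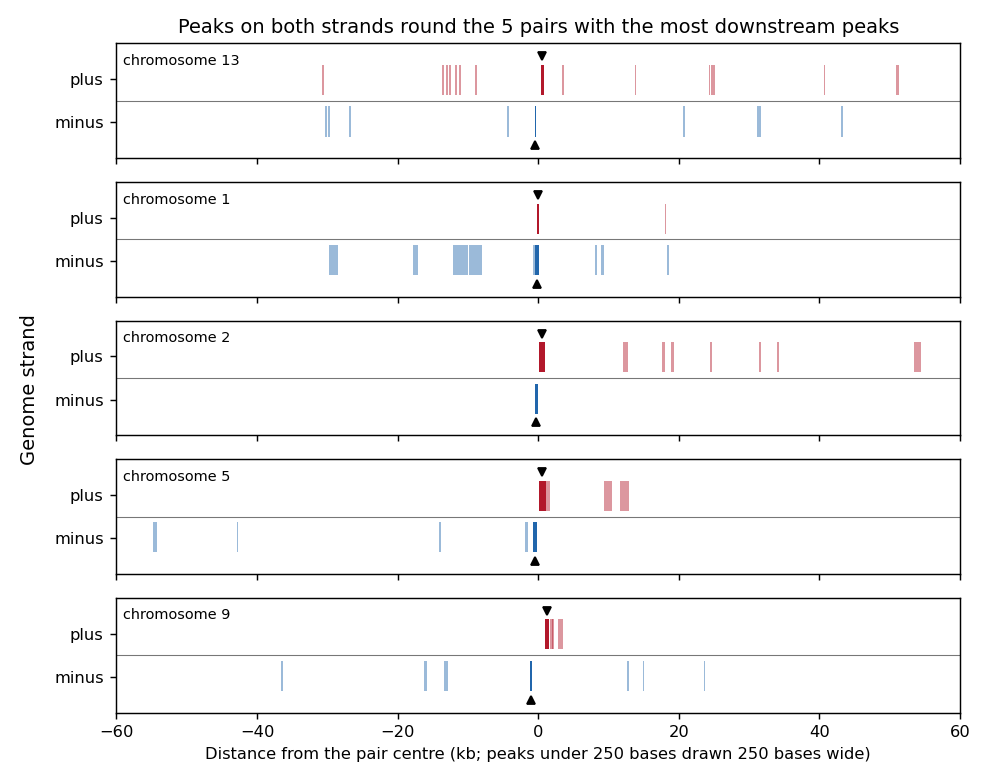
Peaks on both strands within 60 kb of the centre of the 5 divergent pairs with the most downstream peaks, plus strand in red above and minus strand in blue below the line, with the members in full colour and marked by triangles; peaks under 250 bases are drawn 250 bases wide. The chromosome 2 pair has 6 plus-strand peaks within 50 kb to its right and no minus-strand peak to its left, the chromosome 5 pair has 3 on each outward side, and the chromosome 13 pair has peaks of both strands on both sides.

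Of the large pairs, some stood alone and some continued. The overlapping chromosome 11 pair had 4 minus-strand peaks within 50 kb downstream and no plus-strand one. The chromosome 12 pair at 110030987 had 1 on the minus strand, 134 bases away, and 4 on the plus strand. The chromosome 11 pair with the gap of 18 bases had a next peak on each strand within 10 kb, at 7986 bases on the minus strand and 6039 on the plus strand. By contrast, the chromosome 13 pair at 58502475, the unequal chromosome 1 pair and the chromosome 5 pair of 958 and 962 bases had no same-strand peak within 50 kb downstream. The next peaks downstream of that chromosome 5 pair were 9614286 bases away on the minus strand and 1613007 on the plus strand.

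Divergent pairs were spread over all 19 autosomes and seldom lay near each other. Successive pair centres on a chromosome were a median of 7768895 bases apart, and counting pairs within 50 kb of each other once left 137 of the 141. Chromosomes 7 and 11 had 15 pairs each, chromosome 6 had 14, chromosome 12 had 11 and chromosome 1 had 10, while chromosomes 16 and 18 had 2 each. As a share of a chromosome's peaks, members ranged from 1.12% on chromosomes 2 (0.536 to 2.04) and 16 (0.306 to 2.84) to 4.17% on chromosome 12 (2.63 to 6.25). Chromosome 6 had 4.15% (2.78 to 5.95) with 14 divergent pairs and no convergent pair. On chromosome 13 convergent pairs were the more frequent kind, 9 against 7.

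Whether a pair lay between head-to-head genes or at a single promoter was not analysed here, because the gene table at hand is of the GRCm38 build and the peaks are in mm9. The table does show how such genes are spaced. Among 16457 autosomal protein-coding genes with a RefSeq start in GRCm38.p6, 1637 (9.95%) had a protein-coding gene starting head to head within 2000 bases, and the other 90.1% did not. The 827 head-to-head gene pairs had a median of 178 bases between their closest such starts, with a middle range from 81.5 to 400.5. Only starts with the minus-strand one at the lower or the same position were counted, so these distances are never negative. With long noncoding RNA genes included, 14.1% of 25748 genes had such a partner, at a median of 165 bases. Beside these stand the median gap of 487 bases over the 97 separate pairs and of 279 bases (207 to 378) over all 141 divergent pairs with overlaps counted as negative gaps. Peak edges are not transcription starts, and the pairs were not assigned to genes, so no comparison is made.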

How the data were processed

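Per the labels, the YY1 library was deposited as peak lists, 1 for each strand, with chromosome, start and end only. The authors' lists hold no count, score or height for a peak, so read depth is unknown. The submitters' processing notes name cutadapt, Bowtie, Bowtie2 and SAMtools without role or version, and the build mm9. For the peak caller, its threshold and any use of the control, the method is not stated in those notes or in the lists.

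Starts were converted to 1-based positions. Overlap meant at least 1 shared base, and separate pairs were sought among peaks without an opposite-strand overlap. Shares have exact Clopper-Pearson 95% intervals, and medians have intervals from binomial ranks. The pairing was tested on simulated data. The members and lists were chosen with earlier results of these data known. Named pairs were the 10 largest by summed width, the 5 most unequal, the 3 with the smallest gaps, the 3 longest overlaps, the 5 with the most downstream peaks and the 3 on each side of the gap limit; the narrow overlapping pairs were chosen after their values were seen. Gene starts, gene lists and sequences in mm9 were not used here. Python 3.11.15 was used with scipy 1.17.1, pandas 2.3.3, numpy 2.4.6 and, for plots, matplotlib 3.10.9.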

Additional observations from a re-analysis of the deposited data

How the results depend on the processing

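Among 36 values under other settings, 30 lay inside the interval given above or, for counts, differed by no more than 1.5 times. Keeping only the wider 50% of each strand's peaks left 39 of 141 divergent and 5 of 49 convergent pairs. Fewer peaks give fewer pairs, but the convergent count fell by the larger share. The balance of the 2 kinds thus depended on the peak widths kept. The 49 convergent pairs became 31 with a gap limit of 500 bases and 96 with one of 5000 bases. The share of members with a downstream peak, 22.7% within 10 kb, was 16.7% within 5 kb and 40.4% within 50 kb, as the limit itself sets. The count of divergent pairs stayed between 94 and 195 under the other alternatives run for it. With overlapping pairs ordered by lower edges instead of midpoints, there were 137 divergent and 53 convergent pairs. The share with a wider plus-strand peak ran from 43.3% to 46.0%, and the median width ratio from 1.86 to 2.09. Alternatives for gene starts were not run. Replicates could not be compared because the peaks come from 1 library. Within pairs, no paired test of the 2 widths was run. Since depth is unknown, bound RNA may also be present where no peak was called.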

Other observations

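The same steps found 9 divergent pairs outside the part of the genome described above. Chromosome X had 4 of them. In 2 of these, peaks of 92 and 91 bases (97638659 to 97638750 and 97638697 to 97638787) and of 95 and 86 bases (141949531 to 141949625 and 141949570 to 141949655) overlapped by 54 and 56 bases, the narrow shape seen in 6 autosomal pairs. The stretch of chromosome 1 that was left out had the other 5, with minus-strand peaks of 120 to 139 bases, plus-strand peaks of 133 to 143 bases and gaps of 436 to 539 bases.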
